A study of Rattus norvegicus with 72 samples.

Results

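Glucuronosyltransferases, sulfotransferases and carboxylesterases were followed in rat primary hepatocytes exposed to 8 compounds. The members were all probe sets whose platform gene symbol, alone or among several, starts with Ugt1, Ugt2, Sult, Ces1, Ces2 or Ces3. This gave 33 of the 31099 probe sets of the table, with 11 for UGT, 16 for SULT and 6 for CES genes. A single symbol was given for 29 of them and several symbols for 4. There was 1 Ces2 probe set, that of Ces2c, and there was 0 for Ces3. Of the 33 probe sets, 28 passed a filter on low intensity and were tested (11 UGT, 12 SULT and 5 CES). The other 5 were 1 of the probe sets of Ces1c (1397427_at) and those of Sult1d1, Sult2a1, Sult2a2 and Sult4a1. Their median intensities over all arrays were 4.25, 3.29, 1.03, 6.07 and 9.24, near the floor of 3.12 that was set for log values.

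Glucuronosyltransferases (UGTs) sit in the membrane of the endoplasmic reticulum and attach glucuronic acid from UDP-glucuronic acid to drugs, bilirubin and steroids. Cytosolic sulfotransferases (SULTs) transfer sulfate from the cofactor PAPS to phenols, steroids, thyroid hormones and bile acids. Carboxylesterases (CES) of the liver hydrolyse esters, amides and lipids, and the products are often conjugated next. These families are abundant in liver and include textbook targets of the xenobiotic-sensing receptors AhR, CAR, PXR and PPARα and of the stress factor NRF2.

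The hepatocytes were isolated by collagenase perfusion and kept as a monolayer, first in William's E medium with serum and then without serum, with hydrocortisone and insulin. Strain, sex and age of the rats and the vehicle were not given in the sources used here. Exposure began 18 to 20 h after plating and lasted 24 h or 72 h. The genotoxic carcinogens were aflatoxin B1 (AFB, 19 nM), the tobacco nitrosamine NNK (625 µM) and 2-Nitrofluorene (2NF, 78 µM). The non-genotoxic carcinogens were the PPARα agonist Wy-14643 (WYE, 250 µM), Piperonyl butoxide (PIPB, 13.4 µM) and Methapyrilene (MPH, 8.5 µM). The non-carcinogens were Nifedipine (NIF, 156 µM) and Clonidine (CND, 277 µM). These classes came from the series text and general knowledge of the compounds, not from a label of each sample. WYE, CND and AFB shared 1 control, 2NF, PIPB and NIF shared another, and NNK and MPH had a control each. Each of the 24 groups had 3 arrays, from 3 independent biological experiments, so that 72 arrays were measured. Each group held 1 dose, so no dose relation could be examined.

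The values were scaled array intensities, with a trimmed mean between 99.992 and 99.993 on every array and a median between 15.757 and 23.804. The number of arrays limits the precision. The 8 arrays with D3 in their titles, which are replicate 3 of the WYE, CND and AFB set, stood apart. What the D number stands for was not stated. The arrays of the 2NF, PIPB and NIF set and those of NNK and its control carry the same D numbers (D7, D8 and D9). A score was taken over 5782 probe sets that separate the times in other sets' controls, in units of the change in those controls. It changed by -0.65 to -0.36 (72 h minus 24 h) in the 4 pairs of D3, against their time labels. The score changed by 0.33 to 1.24 in the 23 pairs outside D3 and outside those controls. Whether the time labels of D3 were exchanged was not tested. The log2 ratio of 3′ to 5′ actin signal, a measure of RNA quality, was 1.84 to 2.71 on 10 arrays, against 0.36 to 1.11 on the other 62. These 10 arrays were the 8 of D3, AFB at 24 h replicate 1 and AFB at 72 h replicate 2. Results for WYE, CND and AFB are therefore given with and without D3 where the call changed. Markers of the labelled cell type were high on every array, with a summed intensity of 15440 to 37500 for the hepatocyte list. The sums were 349 to 2673 for macrophage, 158 to 3190 for stellate cell, 20.1 to 236 for endothelial cell and 218 to 1113 for bile duct cell markers. In bulk RNA, fewer cells of a type and less RNA per cell cannot be told apart.

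Promoters of 4 member genes are shown: Ces2c, Sult2a6 and Ugt2b, whose probe sets were called, and Ugt1a6, a textbook AhR target read here only through the shared Ugt1a exons. Each is the 250 bases upstream of the RefSeq gene start on the GRCr8 build, printed 5′ to 3′ on the strand of the gene. Capitals mark matches to motifs that were searched in 33469 rat promoters of the same length. In Ces2c (chr1:270376951-270377200, plus strand) they mark a p53 half-site, found in 6.64% of all promoters on either strand. In Sult2a6 (chr1:84097809-84098058, minus strand) they mark an HNF1 half-site (GTTAAT, either strand, 6.45% of all promoters) and a TATA box (TATAAA, gene strand, 8.06%). In Ugt2b (chr14:20985199-20985448, plus strand) they mark a TATA box. In Ugt1a6 (chr9:96194768-96195017, plus strand) they mark 2 HNF1 half-sites, the second on the opposite strand, and an XRE core, the element bound by AhR (GCGTG, either strand, 25.89%).
Ces2c: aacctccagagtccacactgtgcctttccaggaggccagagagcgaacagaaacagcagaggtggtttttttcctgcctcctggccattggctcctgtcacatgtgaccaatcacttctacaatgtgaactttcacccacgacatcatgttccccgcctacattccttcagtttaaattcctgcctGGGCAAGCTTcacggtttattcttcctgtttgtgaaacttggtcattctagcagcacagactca
Sult2a6: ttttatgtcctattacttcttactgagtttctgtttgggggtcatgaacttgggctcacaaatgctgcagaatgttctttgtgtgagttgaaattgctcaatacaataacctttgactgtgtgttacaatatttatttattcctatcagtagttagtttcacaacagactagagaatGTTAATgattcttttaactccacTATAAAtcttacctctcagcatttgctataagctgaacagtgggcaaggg
Ugt2b: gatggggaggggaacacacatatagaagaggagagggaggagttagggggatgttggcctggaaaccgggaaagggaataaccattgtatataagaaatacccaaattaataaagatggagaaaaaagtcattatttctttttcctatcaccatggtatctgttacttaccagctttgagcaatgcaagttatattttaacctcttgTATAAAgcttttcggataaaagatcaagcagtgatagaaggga
Ugt1a6: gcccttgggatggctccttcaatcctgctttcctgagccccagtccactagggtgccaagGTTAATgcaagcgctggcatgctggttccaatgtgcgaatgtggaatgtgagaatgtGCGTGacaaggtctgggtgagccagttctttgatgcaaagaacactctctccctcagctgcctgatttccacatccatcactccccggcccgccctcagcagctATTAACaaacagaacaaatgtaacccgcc
Of 33 promoters of 32 member genes, 3 held the p53 half-site (Ces2c, Ugt1a7c and Ugt2b10), 6 the HNF1 half-site, 5 the TATA box and 8 the XRE core. Ugt2b34l1 entered with 2 overlapping promoters, both with the XRE core. The nuclear receptor half-site (AGGTCA, either strand) was in 1 of 33, that of Ugt2b15, and in 14.06% of all promoters. The antioxidant response element core (TGACNNNGC, either strand) was in 0 of 33 and in 10.08% of all. The motifs share no bases in the promoters printed. These matches describe letters in a window and say nothing of binding.

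Levels were first read over the 72 arrays. The phenol sulfotransferase Sult1a1 ranged between 1691 and 7595 (median 5369), and Sult1b1, a thyroid hormone sulfotransferase, between 1870 and 6015 (median 4466). The probe set for the exons shared by the Ugt1a genes (1370613_s_at), which carries 8 Ugt1a symbols including those of the bilirubin enzyme Ugt1a1 and the phenol enzyme Ugt1a6, ranged between 3140 and 7793 (median 5364). It cannot separate these genes. All 72 arrays thus gave a clear signal for these 3 readings. Ugt2b1, which in rat conjugates bisphenol A and morphine, ranged between 742 and 5952 (median 2699). Sult2a1, a hydroxysteroid sulfotransferase, had a median of 1.03 and a highest value of 4.59, and lay at or under the floor of 3.12 on 61 of 72 arrays, so it gave no usable level. No probe set carried the symbol Ugt2b17 or Ces2a. Ces2c ranged between 167 and 2609, Ces1c (1371100_at) between 61.6 and 2440, and Ces1d, whose mouse counterpart is a triacylglycerol hydrolase, between 57.3 and 3183. Each of these carboxylesterase readings thus spread over more than 10-fold between arrays.

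Over the 16 comparisons of a compound with its control, the 28 tested members gave 448 tests, of which 14 were called at an adjusted p under 0.05 in limma. One of the 14, on Ugt2b7, follows from the filter on low values, as described with nifedipine. The calls fell on 11 members, and the other 17 were called in none. For 8 members the log2 change stayed under 1 in size in every comparison. For the shared Ugt1a exons the 1370613_s_at change ran between -0.39 with AFB at 72 h and 0.37 with NIF at 72 h, and that of the second such probe set (1387759_s_at) between -0.62 with AFB at 72 h and 0.41 with WYE at 24 h. None was called over all arrays, but without D3 the change of 1387759_s_at with AFB at 72 h was -0.98 and was called (limma, adjusted p = 0.0107). Comparisons within a set share their control arrays. Counts at an unadjusted p under 0.05 are given below as descriptions only. The share of all tested probe sets under that cut was not taken.

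**Figure D1:**
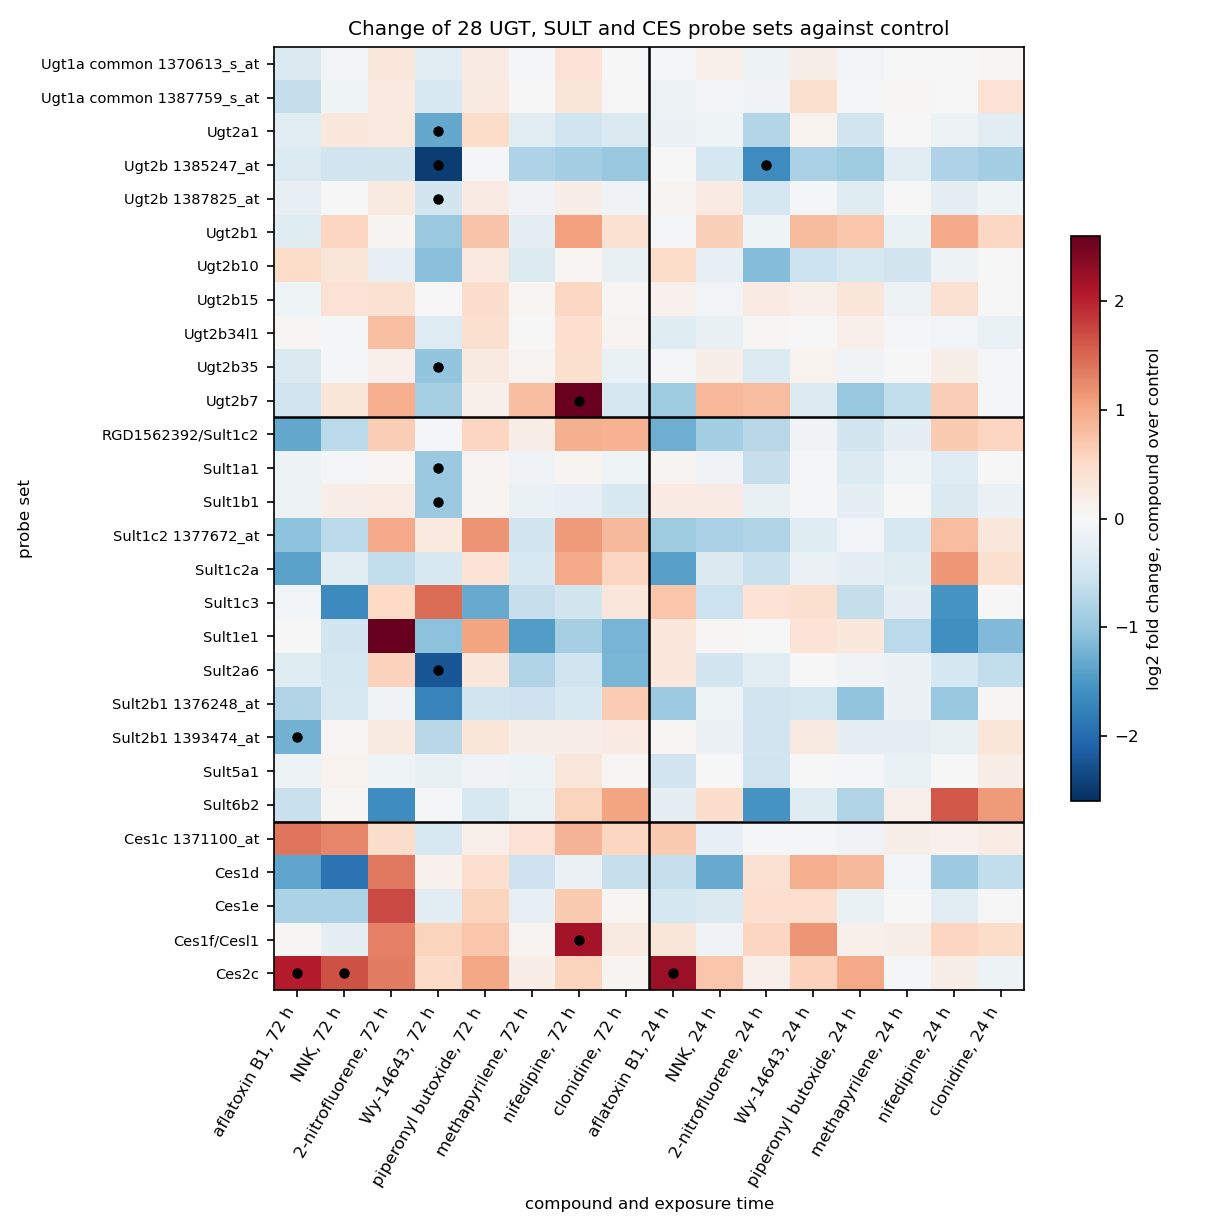
Log2 change, compound over its own control, of the 28 tested probe sets (rows, by family) in 16 comparisons (columns, 72 h block left of the 24 h block), with the colour scale in log2 units. Black dots mark the 14 changes called by limma, 7 of which lie in the column of Wy-14643 at 72 h and 3 in the row of Ces2c.

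Ces2c, a member of the carboxylesterase 2 family whose human counterpart CES2 hydrolyses irinotecan, rose with 2 of the genotoxic carcinogens. With AFB at 72 h its intensity was 2609, 1689 and 597 in replicates 1 to 3, against 390, 584 and 167 in the control. The groups did not overlap, although the lowest AFB array lay just above the highest of the control, and replicate 3 was the lowest in both groups. The mean was 1632 ± 1007 with AFB and 380 ± 209 in the control (SD, n = 3 each), a log2 change of 2.04 ± 0.40 (SE) or 4.11-fold (limma, adjusted p = 0.000389). With AFB at 24 h the values were 714, 742 and 2104, against 250, 191 and 224 in the control. The groups did not overlap, and the log2 change was 2.24 ± 0.40 (limma, adjusted p = 0.00014). Without D3 the changes were 2.14 at 72 h (limma, adjusted p = 1.06e-06) and 1.74 at 24 h (adjusted p = 0.000128), and when the arrays of high actin ratio were dropped they were 2.45 and 1.77 (adjusted p = 1.42e-05 and 0.00181). When the spread was taken from the AFB and control arrays alone, the call was lost at both times (adjusted p = 0.572 at 72 h and 0.238 at 24 h).

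With NNK at 72 h Ces2c stood at 1689, 1514 and 1219, against 438, 409 and 553 in the NNK control. The groups did not overlap, and the log2 change was 1.66 ± 0.40 (3.16-fold; limma, adjusted p = 0.00927). Without replicate 1 of NNK at 72 h the call was lost (adjusted p = 0.0623). At 24 h NNK gave 518, 711 and 700, against 293, 469 and 425 in the control, which did not pass (0.71; adjusted p = 0.637). The 24 h groups also lay apart, by less than at 72 h. Whether the NNK effect differed between times was not called for any member.

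With 2NF at 72 h Ces2c stood at 1804, 1101 and 1862, against 598, 505 and 777 in the control. The groups did not overlap, but the log2 change of 1.33 was not called over all arrays (limma, adjusted p = 0.119). It was called without D3 (adjusted p = 0.000404), whose arrays belong to another set and enter only the shared estimate of spread. At 24 h the 2NF values of 430, 502 and 485 overlapped those of the control, 299, 560 and 471. PIPB gave 1322, 1034 and 1407 at 72 h and 843, 763 and 939 at 24 h, above every array of the same control. Neither was called (log2 changes of 1.01 and 0.98, both adjusted p = 1), although the 24 h change was called without D3 (adjusted p = 0.0466). With MPH at 72 h it stood at 572, 400 and 463, against 459, 347 and 469 in the control, and CND gave 436, 507 and 200. These last groups overlapped their controls. Over the 16 comparisons the change in Ces2c ran between -0.14 with CND at 24 h and 2.24 with AFB at 24 h.

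**Figure D2:**
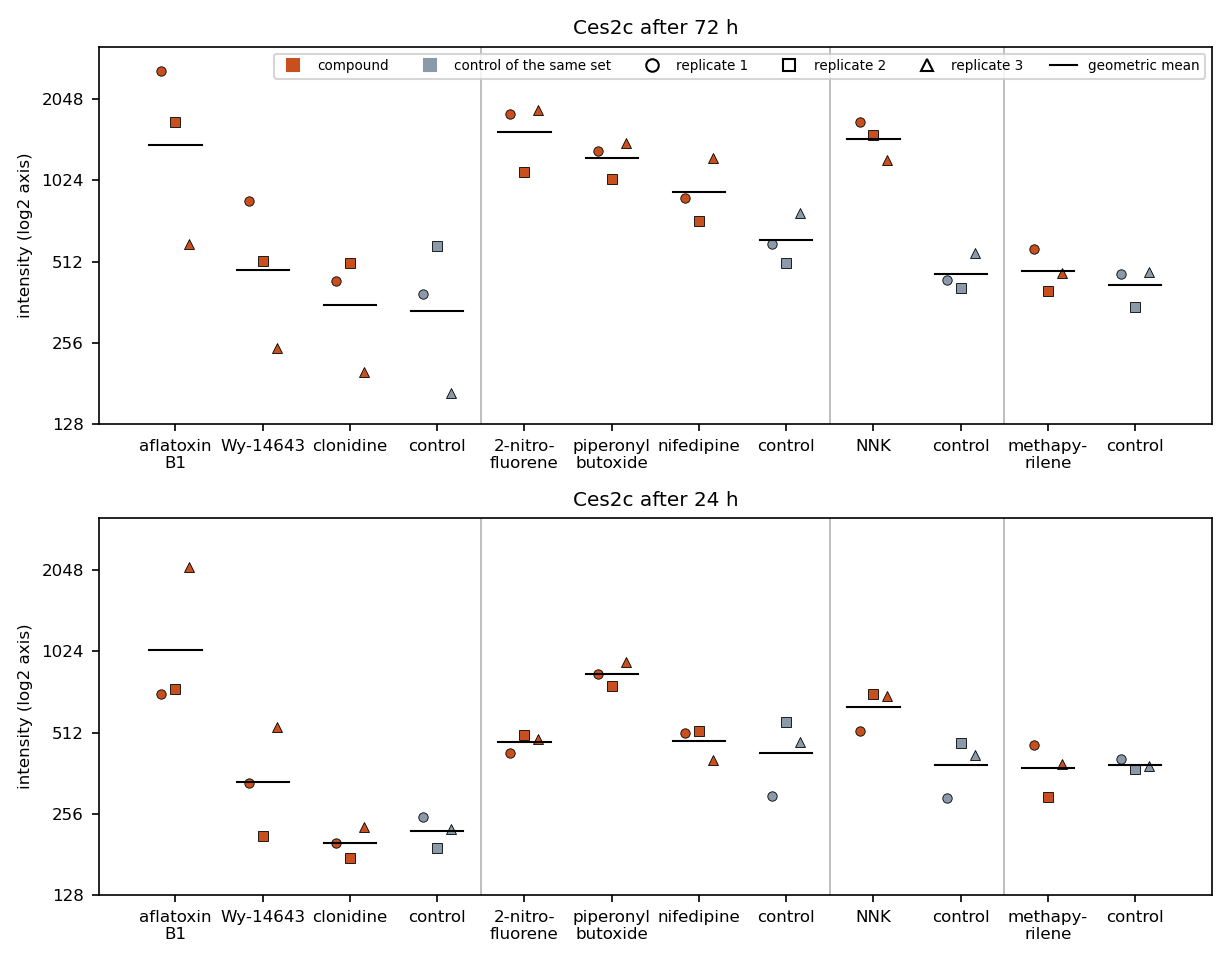
Ces2c intensity of each array (points, log2 axis; bars are geometric means) by group, at 72 h (upper panel) and 24 h (lower panel), with the compounds of each set left of their control. With AFB the 72 h points lie at 2609, 1689 and 597 against 390, 584 and 167 in the control, and the NNK points at 72 h all lie above those of their control.

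Few other members were called with the genotoxic carcinogens. With AFB at 24 h the call on Ces2c was the only 1 of 28, beside 3.33% of all tested probe sets called and 1.8% called higher. With AFB at 72 h 1 member rose and 1 fell, beside 4.91% called, 2.78% higher and 2.13% lower. The member that fell was a probe set of the hydroxysteroid sulfotransferase Sult2b1 (1393474_at), with 5.13, 11.9 and 23.1 against 17.6, 31.4 and 32.5 in the control. These groups overlapped, and the log2 change was -1.23 (limma, adjusted p = 0.018). It lost its call in 4 of 6 fits that left out 1 array (-0.66 without AFB replicate 1; adjusted p = 0.198) and with only the groups compared (0.785). The change was -2.20 without the arrays of high actin ratio and -0.58 on the log2(value + 16) scale, and the other Sult2b1 probe set (1376248_at) changed by -0.78 without passing (adjusted p = 0.624). Ces1c, a secreted plasma esterase in mouse, stood at 262, 554 and 927 with AFB at 72 h, against 61.6, 136 and 874 in the control. Its change of 1.40 was not called over all arrays (adjusted p = 0.358) and was 2.06 without D3 (limma, adjusted p = 0.00075). The sum of the 14 measured macrophage markers was higher with AFB, at 1692 to 2342 against 816 to 1392 in the control at 72 h, and at 1492 to 2673 against 789 to 1585 at 24 h. Of the 13 tested, 12 were higher at 72 h and 0 were called, and their part in the AFB results was not tested.

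With NNK, 0 of 28 members were called by limma at 24 h, beside 0.92% of all tested probe sets, and 1 had an unadjusted p under 0.05. At 72 h Ces2c was the 1 call, beside 3.32% called and 1.67% called higher. Ces1d stood at 195, 61.7 and 584 with NNK at 72 h, against 963, 360 and 1095 in the control. It was lower in each pair of the same number, but its change of -1.92 was not called over all arrays (adjusted p = 0.135). It was called with the replicate number as a block (0.0299) and when the high actin ratio arrays were dropped (0.0354). Sult1c3, which in rat sulfates N-hydroxy arylamides, changed by -1.66 (adjusted p = 0.398). Of the pathway lists, cofactor supply had 2 called falls at 72 h: the PAPS synthase Papss2 (-0.67) and the sulfate carrier Slc26a1 (-1.12). The canalicular exporter Abcc2 rose by 1.39 on the log2 scale. The NRF2 gene Nfe2l2 rose by 0.97 at 72 h and by 0.97 at 24 h.

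Ugt2b (1385247_at) fell with 2NF at 24 h, the 1 member called, beside 1.13% of all tested probe sets called and 0.338% called lower. Its intensity was 296, 202 and 255.9 with 2NF, against 688, 822 and 812 in the control. All 3 arrays with 2NF lay far under all 3 of the control, and the log2 change was -1.63 ± 0.30 (3.11-fold lower; limma, adjusted p = 0.000498). The call held in all 8 alternatives and in each of 6 fits without 1 array. The second Ugt2b probe set (1387825_at) changed by -0.46 and did not pass over all arrays (limma, adjusted p = 0.144). It passed with the replicate block (0.0299). The probe sets of this gene thus differed in size of change. With the replicate number as a block 4 members were called, beside 3.27% of all tested probe sets. One was Sult6b2, with 24.1, 34.1 and 34.8 against 80.3, 112 and 78.3 in the control, a change of -1.54 (adjusted p = 0.11 without and 0.00715 with the block).

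With 2NF at 72 h, 0 of 28 members were called by limma over all arrays, beside 0.809% of all tested probe sets. An unadjusted p under 0.05 was found for 7 members. With the replicate block 5 were called, beside 1.69% of all tested probe sets. Of the 28, 22 were higher, with a median log2 change of 0.27 against -0.07 over all tested probe sets. The oestrogen sulfotransferase Sult1e1 stood at 286, 197 and 489 with 2NF, against 56.2, 40.1 and 55.8 in the control (2.59; adjusted p = 0.206, and 0.0358 with the block). Ces1e stood at 285, 138 and 325, against 58.5, 55.8 and 108 (1.72; adjusted p = 0.104, and 0.0227 with the block). Both lay wholly above their control arrays. Ces1f/Cesl1 stood at 826, 773 and 925, against 362, 286 and 375 (1.31; adjusted p = 0.138, and 0.0257 with the block). Sult6b2 lay wholly under its control, at 148, 231 and 136 against 543, 597 and 409 (-1.61; adjusted p = 0.118, and 0.00627 with the block). The fifth was Ugt2b34l1 (0.78; 0.0169 with the block). Among the lists, 5 of 5 tested PPARα targets rose, with a median of 4.08, as did 1 of 4 AhR targets, Cyp1a1 (3.87). Of 13 macrophage markers 1 was higher and 0 were called, with a median of -1.12, and their part was not tested. At 24 h 5 of 5 PPARα targets rose as well, led by the acyl-CoA thioesterase Acot1 (8.85).

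Wy-14643 at 72 h changed the most members of the 16 comparisons. Of 28, 7 fell and 0 rose, beside 7.31% of all tested probe sets called and 4.49% called lower. The 28 had a median log2 change of -0.42, against -0.03 over all tested probe sets. Falls were found among the UGTs (4 of 11 tested) and the SULTs (3 of 12), and 0 of 5 CES members were called. The median was -0.85 for the UGTs, -0.57 for the SULTs and 0.10 for the CES. At 24 h 0 of 28 were called by limma, beside 0.0443%, and 3 had an unadjusted p under 0.05. No gene of the pathway lists was called with WYE at 24 h, so the tested PPARα targets were not called there either.

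Among the UGTs, Ugt2b (1385247_at) stood at 211, 87.7 and 171 with WYE at 72 h, against 556, 1054 and 919 in the control. The groups lay well apart, with means of 157 ± 63.1 and 843 ± 258 (SD, n = 3 each) and a log2 change of -2.47 ± 0.30 (5.53-fold lower; limma, adjusted p = 4.16e-07). Ugt2b (1387825_at) stood at 3894, 2896 and 2844, against 4815, 4798 and 3759, a change of -0.48 (adjusted p = 0.0416). Those groups overlapped. Ugt2b35 stood at 1881, 1532 and 842, against 2598, 3772 and 2111 (-1.03 ± 0.24; adjusted p = 0.00376). Ugt2a1, known from the olfactory epithelium, stood at 28.9, 30.0 and 19.2, against 55.4, 116 and 41.6 (-1.34; adjusted p = 0.029). Neither of these 2 overlapped its control. Ugt2b1 stood at 849, 924 and 806, against 1166, 2242 and 1820, a change of -0.97. That change was not called over all arrays (limma, adjusted p = 0.0748) and was called with the block (0.0438).

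Among the SULTs, Sult1a1 stood at 4285, 1691 and 3480 with WYE at 72 h, against 5567, 6158 and 5549 in the control. Sult1b1 stood at 3867, 1870 and 2270, against 5009, 5724 and 4279. In both, every WYE array lay under every control array, replicate 2 being lowest, and both changed by -0.97 ± 0.18 (1.96-fold lower; limma, adjusted p = 0.000174 for Sult1a1 and 0.000277 for Sult1b1). Sult2a6, a hydroxysteroid sulfotransferase, stood at 236, 26.8 and 112, against 180, 640 and 619. Its groups overlapped because replicate 1 was higher with WYE, and the change was -2.22 ± 0.69 (adjusted p = 0.0367). At 24 h Sult1a1 stood at 5510, 5110 and 4590 with WYE, against 5744, 5232 and 4543 in the control, nearly the same in each pair. Sult1c3 was high on 1 array only, with 471, 14.8 and 22.2 with WYE at 72 h against 15.1, 10.3 and 49.1 in the control.

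Without D3, 6 of the 7 members kept their call and Sult2a6 lost it (-2.09; limma, adjusted p = 0.135). In the 6 fits without 1 array, Ugt2b (1385247_at), Sult1a1 and Sult1b1 kept their calls in all, although Sult1a1 changed by only -0.57 without WYE replicate 2. Ugt2b35 lost its call without control replicate 2 (adjusted p = 0.0721) or WYE replicate 3 (0.0797), Sult2a6 and Ugt2a1 lost theirs in 3 (Sult2a6 at -1.35 without WYE replicate 2) and Ugt2b (1387825_at) in 4. All 7 were lost when the spread came from these 6 arrays alone, with an adjusted p of 0.158 for Ugt2b (1385247_at), 0.509 for Sult1a1 and 0.438 for Sult1b1. The sum of the 14 measured macrophage markers was 472 to 791 with WYE, against 816 to 1392 in the control, and 4 of 13 tested fell. Their part in these falls was not tested.

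**Figure D3:**
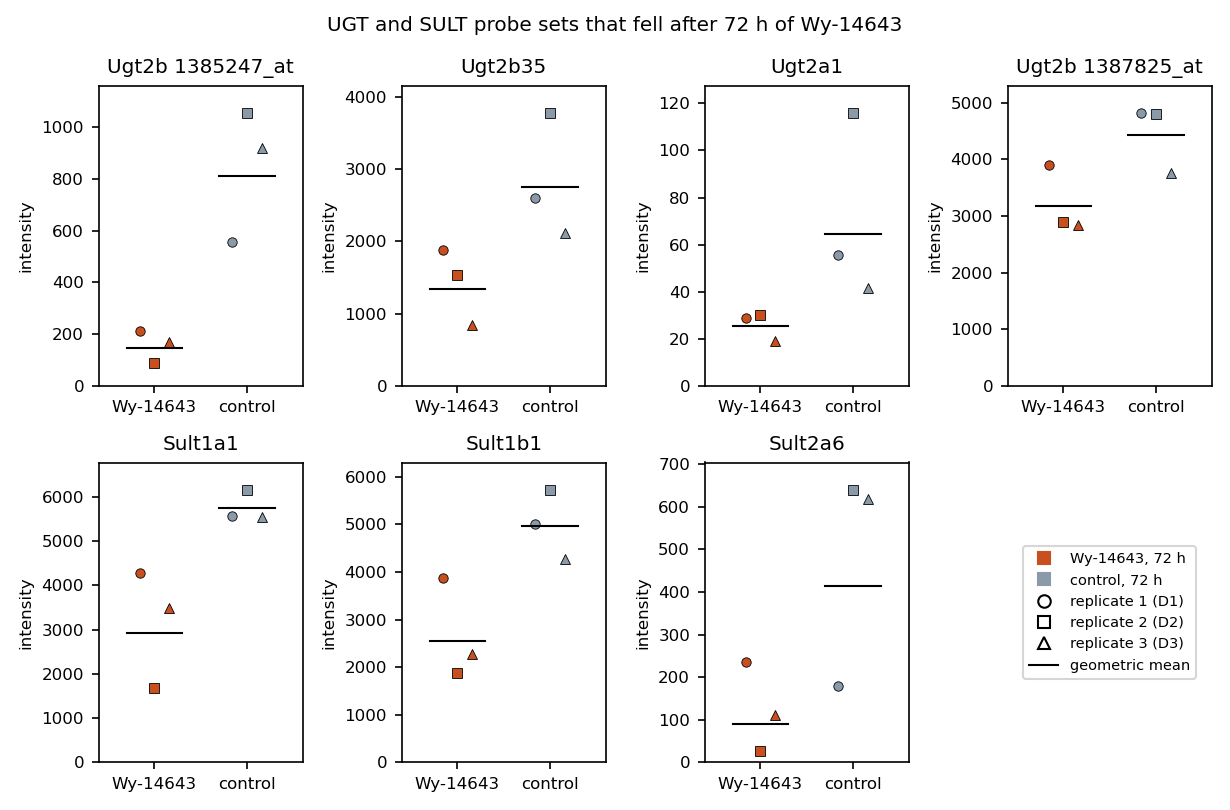
Intensity of the 7 members called with Wy-14643 at 72 h (left in each panel) and in the control (right), linear axes from 0, with a marker for each replicate number and a bar at the geometric mean. The Ugt2b (1385247_at) points lie at 211, 87.7 and 171 against 556, 1054 and 919 in the control, and the groups overlap for Sult2a6 and Ugt2b (1387825_at).

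Pathway genes were also counted with WYE at 72 h. Of 11 tested genes of cofactor supply, Slc35b1, of the nucleotide sugar carrier family, rose (0.76) and Papss2 (-0.58) and Slc26a1 (-1.34) fell, with a list median of 0.00. Of 7 conjugate exporters, 4 rose, among them Abcb1a (1.72), Abcc4 (1.46) and Abcc2 (0.94), and Abcc6 fell (-0.97), with a median of 0.94. Of 7 other hydrolases, the paraoxonase Pon3 (-1.5) and the arylacetamide deacetylase Aadac (-1.44) fell, with a median of -0.33. Of 5 deconjugating enzymes 0 were called. All 5 tested PPARα targets rose, with a median of 4.82, led by Acot1 (9.90) and Pdk4 (5.95). The AhR target Cyp1a1 (-2.98) and the CAR and PXR targets Cyp3a18 (-2.26) and Cyp3a23-3a1 (-0.68) fell. The NRF2 target Hmox1 rose (1.96). Of 7 hepatocyte markers, Cyp2e1 rose (4.24) and Apoa1 (-0.98) and Ttr (-0.59) fell, and Cyp2e1 was the 1 marker that was higher. The list median was -0.44, near the -0.42 of the members, and the summed hepatocyte markers were 17370 to 20650 with WYE, against 22790 to 25420 in the control. These sums did not overlap, and their part in the falls of the members was not tested.

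With nifedipine at 72 h 2 of 28 members were called, both higher, beside 3.18% of all tested probe sets called and 1.35% called higher. One of them, Ugt2b7, had passed the filter on low values only through this group, so it had to differ and its values are given as a description. Ces1f/Cesl1, a carboxylesterase 1 probe set with more than 1 symbol, stood at 1657, 1162 and 1793 with NIF, against 362, 286 and 375 in the control. The groups were far apart, with a log2 change of 2.16 ± 0.40 (4.46-fold; limma, adjusted p = 0.000707). Ugt2b7, whose human namesake UGT2B7 glucuronidates morphine, stood at 16.8, 24.6 and 46.7, against 5.29, 4.57 and 3.74. All 3 NIF arrays lay above the control arrays, which lay just above the floor of 3.12, so that no fold is given; the log2 change was 2.58, or 1.09 on the log2(value + 16) scale. The call on Ces1f/Cesl1 held in all 8 alternatives and in each of 6 fits without 1 array.

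At 24 h 0 of 28 members were called with NIF by limma, beside 0.46% of all tested probe sets, and 4 had an unadjusted p under 0.05. Ces1f/Cesl1 stood at 415, 527 and 573 with NIF, against 237, 455 and 366 in the control (0.56; adjusted p = 0.809), and these groups overlapped. Ugt2b1 was higher on every NIF array at both times. It stood at 5952, 5034 and 4590 against 3076, 1771 and 2795 in the control at 72 h, and at 4826, 5603 and 4998 against 1824, 3104 and 3073 at 24 h. Neither change passed over all arrays (1.06, adjusted p = 0.0754, at 72 h and 0.99, adjusted p = 0.233, at 24 h), and that at 72 h passed with the block (0.0392). Sult6b2 stood at 185, 346 and 310 with NIF at 24 h, against 80.3, 112 and 78.3 (1.61; adjusted p = 0.126, and 0.00754 with the block). The NNK control at 24 h, which carries the same D numbers, lay above this control on every array, with values given below. Ugt2b (1385247_at) stood at 432, 375 and 376 with NIF at 72 h, against 820, 717 and 652 (-0.88; adjusted p = 0.0853, and 0.0333 with the block).

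Some genes of cofactor supply and export were called with NIF. Of 11 cofactor supply genes, 3 rose and 0 fell at 72 h, with a median of 0.12 against -0.07 over all tested probe sets. They were Ugdh, the dehydrogenase that makes UDP-glucuronic acid (1.51), Ugp2, which makes UDP-glucose (1.44), and Pgm1 (0.78). The conjugate exporters Abcc2 (2.09) and Abcc3 (1.81) rose, of 7 tested, with a median of 0.01. Of the NRF2 targets, 8 of 8 rose with a median of 2.66, led by the haem oxygenase Hmox1 (3.58). The AhR target Cyp1a1 rose (5.03), the only 1 of 4. At 24 h Ugdh (1.27), Abcc2 (1.23), Cyp1a1 (3.45) and Hmox1 (2.74) rose as well, and Aadac fell (-1.75). The 14 measured macrophage markers summed to 531 to 1161 with NIF and to 921 to 2011 in the control, with 3 of 13 tested falling, and their part was not tested.

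**Figure D4:**
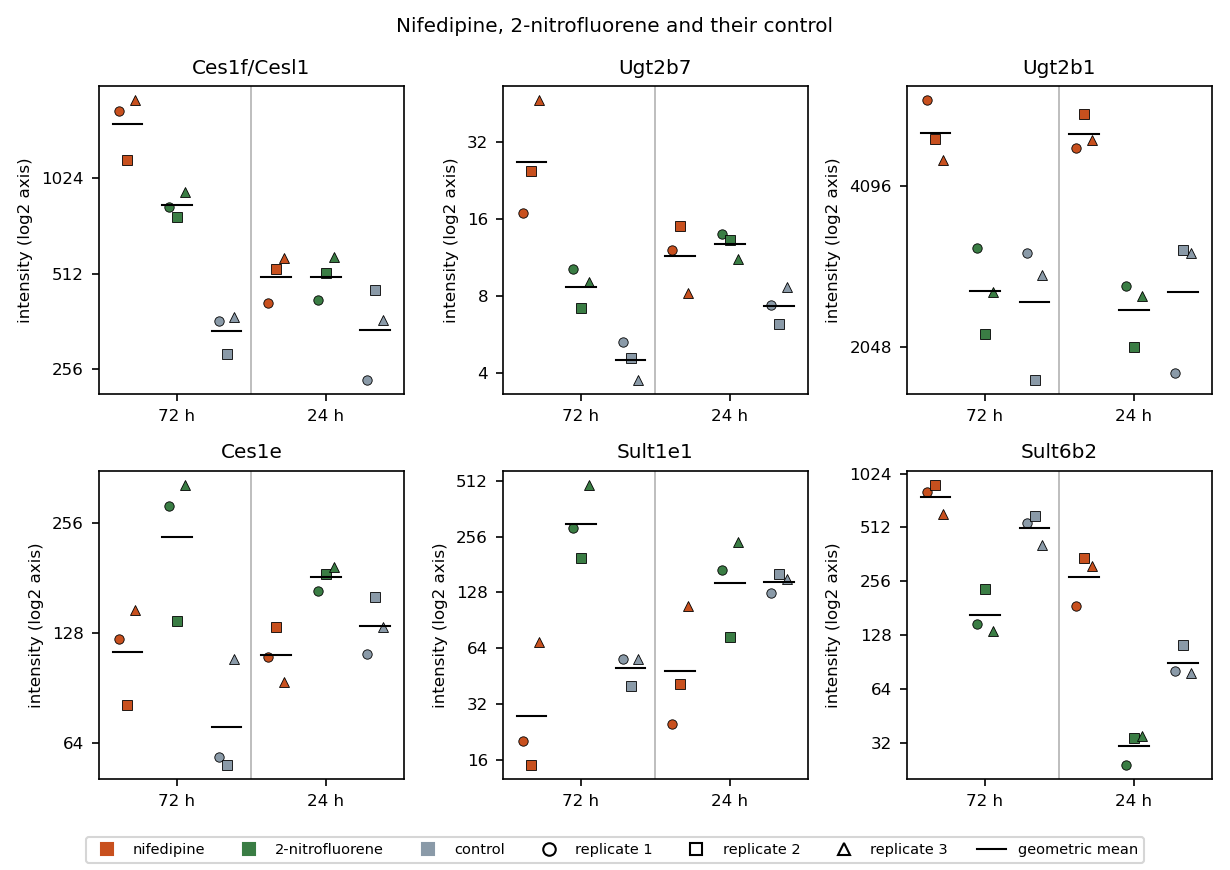
Intensity of 6 members on each array of nifedipine, 2-nitrofluorene and their shared control, 72 h left and 24 h right in each panel, on a log2 axis with bars at the geometric means. Ces1f/Cesl1 with nifedipine at 72 h lies at 1657, 1162 and 1793 against 362, 286 and 375 in the control, while Sult6b2 with 2-nitrofluorene lies under its control at both times.

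The remaining compounds gave no call on a member in limma. With PIPB 0 of 28 were called at 72 h, beside 0% of all tested probe sets, and 0 at 24 h, beside 0.0887%. The unadjusted p was under 0.05 for 3 and 6 members, and 23 of 28 were higher at 72 h, with a median of 0.27. Of 5 PPARα targets, 3 rose with PIPB at 24 h. The NRF2 target Hmox1 rose with CND at 72 h (3.11). With MPH 0 were called at 72 h and at 24 h, beside 0% at both times, and 2 and 0 had an unadjusted p under 0.05. With CND 0 were called at 72 h, beside 0.0332%, and 0 at 24 h, beside 0.0166%, and 3 and 2 had an unadjusted p under 0.05. For Ugt2b (1385247_at) the change was -0.79 with MPH and -0.99 with CND at 72 h. Over the 16 comparisons that probe set changed by -2.47 to 0.01, with a median of -0.80.

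Whether a compound's effect differed between 72 h and 24 h was tested for each compound. In all 8 tests 0 of 28 members were called by limma, and between 0% (AFB, WYE, PIPB, MPH and CND) and 0.116% (NIF) of all tested probe sets were, with 0.0277% for NNK and 0.00554% for 2NF. An unadjusted p under 0.05 was found for 9 members with WYE, 6 with 2NF, 3 with PIPB, 2 with NIF, 1 each with AFB and MPH and 0 with NNK and CND. Ugt2b (1385247_at) differed between 72 h and 24 h with WYE by -1.63 on the log2 scale, which did not pass over all arrays (adjusted p = 0.322) and passed without D3 (-2.15; adjusted p = 0.012). With the replicate block Sult1b1 was called, with a difference of -0.92 between the times for WYE (adjusted p = 0.444 without and 0.0422 with the block). For the other members called at 1 time only, a difference between times was not shown over all arrays.

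The mean effect of the 3 genotoxic carcinogens was set against that of the 3 non-genotoxic carcinogens. At 72 h 2 of 28 members were called higher, beside 2.22% of all tested probe sets called and 1.42% called higher. Ces2c differed by 1.11 ± 0.26 (log2; limma, adjusted p = 0.00912). Its changes were 2.04 with AFB, 1.66 with NNK and 1.33 with 2NF, against 0.50 with WYE, 1.01 with PIPB and 0.17 with MPH. Each genotoxic compound thus had a higher change than each of the others, with 2NF and PIPB the closest. The call held in each of 24 fits without 1 array and was lost with only the groups compared (adjusted p = 0.053). Sult1b1 differed by 0.43 ± 0.12 (adjusted p = 0.0402), and the largest change behind it was the -0.97 of WYE. That call was lost without D3 (0.40; adjusted p = 0.0551) and was kept in 9 of 24 fits without 1 array. Without D3, 72 h differences not called over all arrays were called for Ces1c (1371100_at) and Ugt2b (1385247_at). They were 1.19 for Ces1c (limma, adjusted p = 0.00127, and 0.409 over all arrays) and 0.68 for Ugt2b (0.0238, and 0.0722 over all arrays). At 24 h 0 were called, beside 0.997%, and 2 had an unadjusted p under 0.05.

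In the controls, several members differed between 72 h and 24 h. The controls of the 2NF set and of NNK share their D numbers but were weighted as separate groups. Over the mean of the 4 control groups, 1 member rose and 7 fell of 28, beside 15.9% of all tested probe sets called, 9.71% higher and 6.21% lower. The 28 had a median of -0.20, against 0.02 over all tested probe sets, and 23 of them were lower. Falls were called for 2 of 5 CES, 4 of 12 SULT and 1 of 11 UGT members, and the rise was that of a SULT. The SULT falls include the Sult1c2 probe sets, which lay near the cut of the filter, as described below.

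Ces1c (1371100_at) fell furthest. Its intensity was 156, 145 and 126 at 72 h in the control of 2NF, PIPB and NIF, against 1363, 2146 and 1618 at 24 h. The NNK control had 158, 244 and 210 at 72 h, against 1180, 1743 and 1543 at 24 h, and the MPH control 163, 182 and 103, against 1084, 1724 and 2226. In all 3 sets every 72 h array lay far under every 24 h array. The controls of the 2NF set and of NNK share D numbers, so they may not be separate experiments. In the control of WYE, CND and AFB the values were 61.6, 136 and 874 at 72 h, against 706, 1551 and 125 at 24 h, so that D3 went the other way. The mean change over the 4 sets was -2.83 ± 0.38 (7.10-fold lower; limma, adjusted p = 1.66e-06), and -3.36 without D3. Within sets it was -3.57 (adjusted p = 0.00808), -2.87 (0.0287) and -3.47 (0.0275), and -1.41 (adjusted p = 1) in the set with D3, or -3.52 without it (8.45e-07). The call in the NNK control was lost in each of 6 fits without 1 array, and that in the MPH control in 4 of 6. For the 3 sets outside D3, the D3 arrays enter only the shared estimate of spread. Without D3 the limma adjusted p was 4.23e-09 in the 2NF set, 5.17e-07 in the NNK control and 2.5e-09 in the MPH control.

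Sult6b2, for which no role is given here, was the member that rose. It stood at 543, 597 and 409 at 72 h in the control of 2NF, PIPB and NIF, against 80.3, 112 and 78.3 at 24 h (2.52, 5.73-fold; limma, adjusted p = 0.00352). The NNK control had 543, 578 and 562, against 182, 233 and 169 (1.54; adjusted p = 0.0631), and the MPH control 636, 436 and 330, against 199, 169 and 66.2 (1.79; adjusted p = 0.0581). The 72 h arrays lay above the 24 h arrays in each of these sets, and with the replicate block both changes were called (adjusted p = 0.00494 and 0.00491). At 24 h the control of 2NF, PIPB and NIF lay wholly under the NNK control, although both carry the same D numbers. In the control of WYE, CND and AFB it stood at 194, 190 and 170, against 74.8, 55.8 and 305, again with D3 turned round. The mean change was 1.65 ± 0.24 (3.15-fold; adjusted p = 6.49e-06).

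The other members that fell over the mean of the controls changed by about 1 log2 unit. Sult1e1 changed by -1.31 ± 0.43 (limma, adjusted p = 0.0275), Sult1c2a by -1.18 (0.026), RGD1562392/Sult1c2 by -1.16 (0.0141), Sult1c2 (1377672_at) by -0.96 (0.0373), Ugt2b10 by -1.0 (0.000347) and Ces1e by -0.95 (0.00626). Sult1c2, Sult1c2a and RGD1562392/Sult1c2 belong to 1 subfamily whose members are close in sequence. Sult1c2 (1377672_at) kept its call in 11 of 24 fits without 1 array. It lost the call in limma with no filter (adjusted p = 0.0613), on the log2(value + 16) scale (0.0529) and with only the groups compared (0.0573). RGD1562392/Sult1c2 kept its call in these. The 2 probe sets reached the filter in only 12 and 9 of 24 groups. Their control medians were 31.96 and 28.45 at 24 h but 14.31 and 12.33 at 72 h, under the cut of 19.7434. Their entry to the tests may thus lean on groups where they are high. On the log2(value + 16) scale RGD1562392/Sult1c2 changed by -0.61 and Sult1c2 by -0.46. Over the 12 control arrays of each time, Ugt2b10 ranged between 69.8 and 390 at 72 h and between 200 and 417 at 24 h, and Sult1e1 between 10.8 and 294 at 72 h and between 40.3 and 858 at 24 h. These ranges overlapped. Ugt2b10 was the only other member called within a set, in the MPH control (-1.68; adjusted p = 0.0319), and it lost that call in 5 of 6 fits without 1 array.

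The remaining members to be named were not called over all arrays. The shared Ugt1a exons (1370613_s_at) had a median of 4984 at 72 h and 5218 at 24 h over the 12 control arrays of each (-0.06; limma, adjusted p = 0.645). Sult1b1 had medians of 4581 and 4548 (0.04; adjusted p = 0.806), and Ugt2b1 of 2136 and 2967 (-0.25; adjusted p = 0.35). Ces1d changed by 0.33 (adjusted p = 0.592). Ces2c changed by 0.38 (adjusted p = 0.2), and by 0.51 without D3, where it was called (0.00235). Sult1c3 changed by -0.98 (adjusted p = 0.149), and by -1.21 without D3, where it was called (0.0369). By set, 0 members were called in the control of WYE, CND and AFB (0% of all tested probe sets; 0 at an unadjusted p under 0.05), and 1 rose and 1 fell in that of 2NF, PIPB and NIF (2.71%, with 1.4% higher and 1.31% lower). In the NNK control 1 fell (2.85%, with 1.22% lower), and in the MPH control 2 fell (0.51%, with 0.205% lower).

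**Figure D5:**
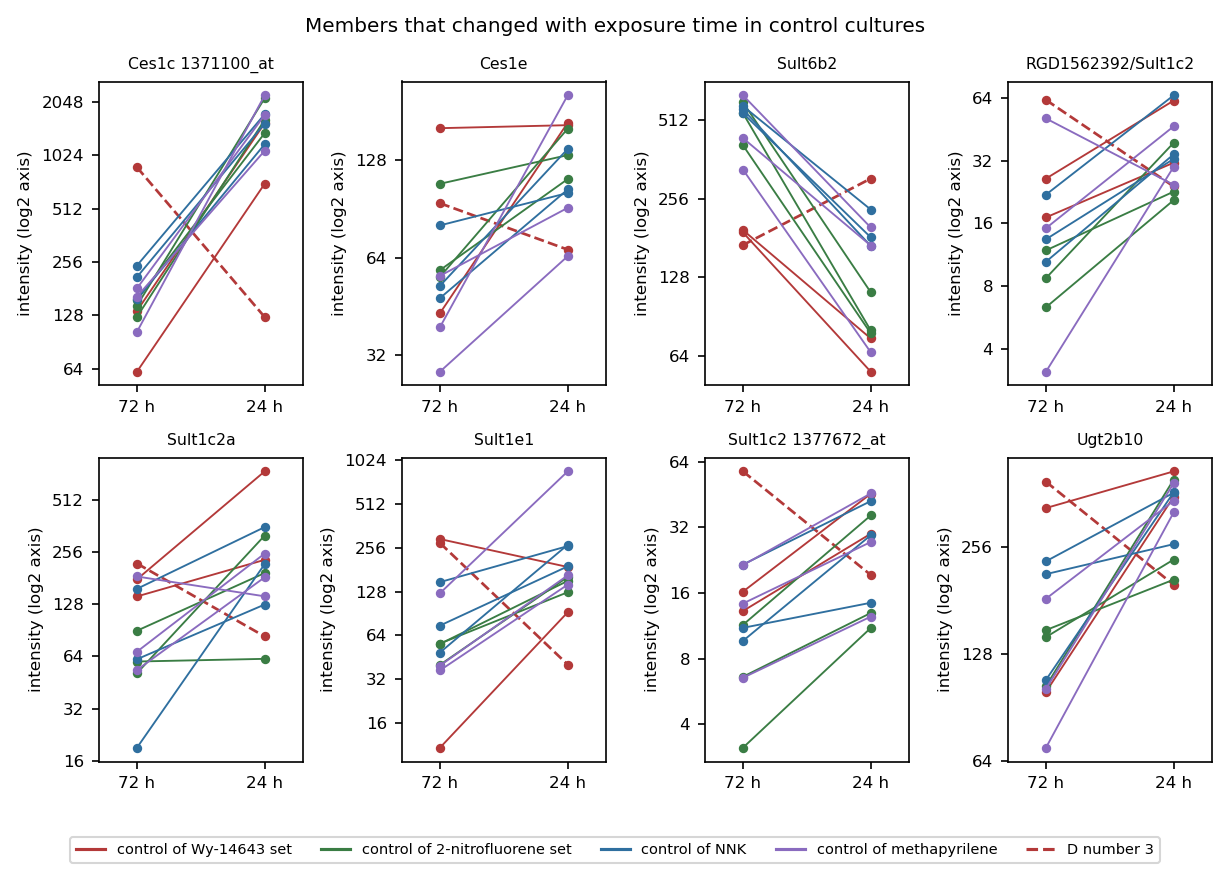
Intensity (log2 axis) of the 8 members called over the mean of the 4 control groups, 72 h left and 24 h right, with a line for each D number of a set and D3 dashed. For Ces1c the other lines lie lower at 72 h, while that of D3 lies at 874 at 72 h and 125 at 24 h; values under the floor are drawn at the floor.

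Markers and pathway genes also differed between the control times. Of 11 cofactor supply genes, the PAPS synthase Papss1 (0.57) and Slc35b3 (0.45) rose and Slc26a1 fell (-0.53), with a median of -0.06. Of 7 exporters, Abcc2 (-0.54) and Abcc6 (-0.59) fell. Of 15 regulators, 3 fell and 0 rose, among them the liver factor Hnf4a (-0.55) and Nr1h3 (-0.64). The cytochromes Cyp1a2 (-3.03), Cyp3a9 (-2.38) and Cyp3a2 (-1.80) fell. Cyp4a1 (1.77) and Gusb (0.42) rose, and Hmox1 fell (-1.18). Of 7 hepatocyte markers, 3 fell, led by Cyp2e1 (-2.84). Of 5 tested endothelial markers, 4 fell, and the sum of the 8 measured was 30.4 to 191 at 72 h against 44.2 to 178 at 24 h. Of 3 tested bile duct markers, Krt7 (3.16) and Epcam (0.93) rose, and the sum of the 7 measured was 394 to 1024 at 72 h against 264 to 658 at 24 h. Krt7, Krt19, Spp1 and Cldn7 lay at the floor on over 36 of the 72 arrays, as did the endothelial marker Vwf. The stellate cell marker Tagln rose (2.17) and Reln fell (-0.98), and the macrophage marker Cd68 fell (-0.96). The stellate cell sum was 402 to 3184 at 72 h against 294 to 1451 at 24 h. The part of these cell types in the changes of the members was not tested.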

How the data were processed

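Total RNA of rat primary hepatocytes was hybridised to Affymetrix arrays. The deposited values are MAS5 intensities per probe set, per the submitters' processing notes, and the authors' scaling set each array's trimmed mean (2% of values left out at each end). For MAS5 no version or setting was given in the sources used here. All value columns matched a sample, with 0 left over, and 57 control probe sets were left out. Gene symbols came from the platform annotation, with 20826 probe sets carrying 1 symbol and 436 several, and these can be old. Of 37 member gene IDs, 35 were found in the RefSeq table and 32 had a RefSeq promoter.

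Intensities were floored at 3.1166, the 20th percentile of all values, and log2 transformed. Probe sets were kept where the highest group mean reached the median intensity of 19.7434, which left 18048 (58.14%). The cell means of 24 groups were fitted in limma 3.58.1 (R 4.3.3) with a trended variance, on 48 residual degrees of freedom, and 31 contrasts were taken. Each was adjusted by Benjamini-Hochberg over all tested probe sets and called at an adjusted p under 0.05. Errors are SE of the log2 change or SD over 3 arrays, and folds are 2 raised to the log2 change. The highest correlation between any pair of arrays was 0.9847, so no array was counted as a duplicate.

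Alternatives were no filter, log2(value + 16), no variance trend, quantile normalization and the D number of the titles as a block. The text calls this block the replicate number or the replicate block. Others were leaving out D3 and leaving out the 10 arrays of high actin ratio (log2 above 1.5). The last were only the groups compared and leaving out each array in turn. Same-numbered arrays of compound and control deviated together in 7 of 8 compounds (correlations of 0.27 to 0.83 over 42 pairs), whereas AFB had -0.26 and -0.29 for 1 array at each time. Those 2 arrays were AFB at 24 h replicate 1 and at 72 h replicate 2, which also had a high actin ratio. The main fit used no pairing. The block covered all arrays, AFB included, although its pairing did not hold for those 2.

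Named were, in each comparison, up to 5 called members with the largest rise and up to 5 with the largest fall. A set list of members was named whether called or not. Called genes of the pathway lists were named in some comparisons only, so a list gene not named may still have been called. Other members were named after their values were seen. The members, the pathway and the marker lists were chosen with earlier results of these data known. The fit was tested on simulated data before use.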

Additional observations from a re-analysis of the deposited data

Results flagged for a closer look

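Over all arrays the carcinogen classes differed in 2 members by a limma test of the difference itself, which is what brought these results up. The calls changed without D3, as given above. For Ces2c at 72 h the mean log2 effect of the genotoxic carcinogens (AFB, NNK and 2NF) exceeded that of the non-genotoxic carcinogens (WYE, PIPB and MPH) by 1.11 (adjusted p = 0.00912), and by 0.95 to 1.32 over 24 fits without 1 array. For Sult1b1 at 72 h the difference was 0.43 (adjusted p = 0.0402). With groups of 3 arrays, no rule for single outlying arrays was used to flag results.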

How the results depend on the processing

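Over the 8 alternatives 205 of the values of called members kept their side of the threshold and 27 lost it, and none of them, nor any in the fits without 1 array, reversed its direction. Of the counts of called members, 200 stayed within 1.5 times the reported count and 48 did not. The cause was not tested. For the alternatives, the share of all tested probe sets called was taken only for 2NF with the replicate block. It was 3.27% at 24 h and 1.69% at 72 h. The counts below are therefore not read as results about the members.

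With the replicate number as a block, the counts were 2 for NNK at 72 h, 4 for 2NF at 24 h, 5 for 2NF at 72 h, 1 for NIF at 24 h, 4 for NIF at 72 h, 1 for the WYE time difference, 4 for the control of 2NF, PIPB and NIF over time and 2 for that of NNK. The block changed no other count by over 1.5 times.

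Without D3 they were 4 (AFB at 72 h), 2 (NNK at 72 h), 2 (2NF at 24 h), 4 (2NF at 72 h), 1 (PIPB at 24 h), 1 (NIF at 24 h), 4 (NIF at 72 h), 1 (WYE time difference), 1 (control of WYE, CND and AFB over time) and 2 (NNK control over time). Without the arrays of high actin ratio they were 3 for NNK at 72 h, 4 for 2NF at 24 h, 5 for 2NF at 72 h, 1 for PIPB at 24 h, 2 for NIF at 24 h, 5 for NIF at 72 h, 4 for the WYE and 1 for the NIF time difference, 2, 4, 3 and 4 for the controls of the WYE, 2NF, NNK and MPH sets over time, and 5 for the class difference at 72 h.

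With only the groups compared, which leaves 4 residual degrees of freedom in a pair, they were 0 for AFB at both times, for WYE at 72 h and for the class difference at 72 h, 3 for 2NF at 24 h, 5 for 2NF at 72 h, 6 for NIF at 72 h, and 5, 5 and 1 for the controls of the 2NF, NNK and MPH sets. No filter gave 4 for WYE at 72 h and 1 for the class difference at 72 h. No variance trend gave 1 for each class difference. Quantile normalization gave 1 for 2NF at 72 h, and log2(value + 16) gave 1 for the NIF time difference and 2 for the NNK control.

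Without 1 array at a time, counts ran from 1 to 3 for AFB at 72 h, 0 to 2 for NNK at 72 h, 0 to 1 for 2NF at 72 h, 3 to 9 for WYE at 72 h, 0 to 4 for the WYE time difference, 1 to 2 for the 2NF, 0 to 0 for the NNK and 0 to 3 for the MPH set's control, 4 to 8 for the mean of the controls, and 0 to 1 and 1 to 4 for the class difference at 24 h and 72 h. MAS5 values near the floor, as for Ugt2b7 and Sult2a1, have little signal over background, and 17.4% to 23.9% of probe sets lay under the floor on an array.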
